A study of Mus musculus with 48 samples.

Results

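A group of 50 ribosome biogenesis genes was followed through the maturation of clonal mouse myeloid cultures. The genes are named by symbol and make up 50 of the 34617 gene rows of the expression table. They were picked for their known roles, with earlier results of these data known. All 50 were present and all 50 had a mean of at least 1 TPM (a transcript abundance corrected for length and scaled to the library total), so none was lost to the filter on low values. The cells were ER-Hoxb8 cultures, mouse bone marrow cells held as myeloid progenitors by an estrogen receptor-Hoxb8 fusion protein, and both states carry this transgene. The monocyte group held 24 libraries labelled as monocyte cultures, and the progenitor group held 24 libraries labelled as granulocyte-monocyte progenitors (GMP), grown with serum and stem cell factor (SCF). Each of 24 clones gave 1 library per state. The sources used here do not explain the plus and minus of the sample titles, and give neither the age and strain of the donor mice nor how long the monocyte cultures matured. Each clone is a separate culture line, so the replicates of a state are clones. Whether they share a founder animal is not given either.

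Ribosomes are built in the nucleolus. RNA polymerase I transcribes the ribosomal RNA (rRNA) precursor, and small nucleolar ribonucleoproteins (snoRNPs) guide its methylation and pseudouridylation. Assembly factors then fold, cut and export the small and the large subunit. Proliferating progenitors are known for large nucleoli and a high demand for ribosomes, and mature myeloid cells for small nucleoli.

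Monocyte libraries carried the monocyte markers, with 6 markers (Csf1r, Lyz2, Ly6c2, Itgam, Fcgr1, Ccr2) summing to between 2140 and 20372 TPM, against 57.5 to 1327 TPM in progenitor libraries. Lyz2 made up most of that sum, with a median of 10120 TPM in monocytes and 58.1 TPM in progenitors, and Ccr2 went the other way, with a median of 30.01 TPM in monocytes and 56.9 TPM in progenitors. The 6 progenitor markers, Kit and Cd34 among them, summed to 11.2 to 334 TPM in monocyte libraries and to 226 to 1292 TPM in progenitor libraries. The 6 neutrophil markers (S100a8, S100a9, Ltf, Ngp, Camp, Retnlg) summed to 339 to 184219 TPM in monocyte libraries, and in 21 of 24 they exceeded the monocyte markers. In progenitor libraries that sum ran from 0.763 to 10713 TPM. Mast cell and basophil markers summed to 0.301 to 2355 TPM in monocyte libraries and 313 to 2814 TPM in progenitor libraries. The 5 eosinophil markers with values summed to 0.275 to 1155 TPM in monocyte libraries and 0.110 to 135 TPM in progenitor libraries. For the 6 lymphoid markers these sums were 0.869 to 42.8 TPM and 1.46 to 42.2 TPM. Among them the T cell gene Cd3e was listed at 0 in all 48, while Il7r reached 42.2 TPM in monocytes and Dntt 37.4 TPM in progenitors. The progenitor library of clone 24 stood apart, with 8240 genes at 1 TPM or more where the median progenitor library had 10243. TPM keep no depth, so the sequencing depth of the libraries is unknown.

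The ribosome biogenesis genes were lower in monocytes almost without exception. Of the 50, 49 fell at an adjusted p under 0.05 in limma, where 36.5% of all 11072 genes tested were lower, and none rose, where 32.4% of all genes were higher. The median change was -1.47 on the log2(TPM + 1) scale, a scale that understates the change of low genes, beside -0.06 over all genes tested. A total of 38 genes fell at least 2-fold, against a background of 13.3%. Together the 50 genes took 0.0393 to 0.309% of the TPM of a monocyte library, with a median of 0.106%, and 0.211 to 0.670% of a progenitor library, with a median of 0.398%. In these bulk samples, fewer cells of a type and less RNA per cell cannot be told apart.

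**Figure D1:**
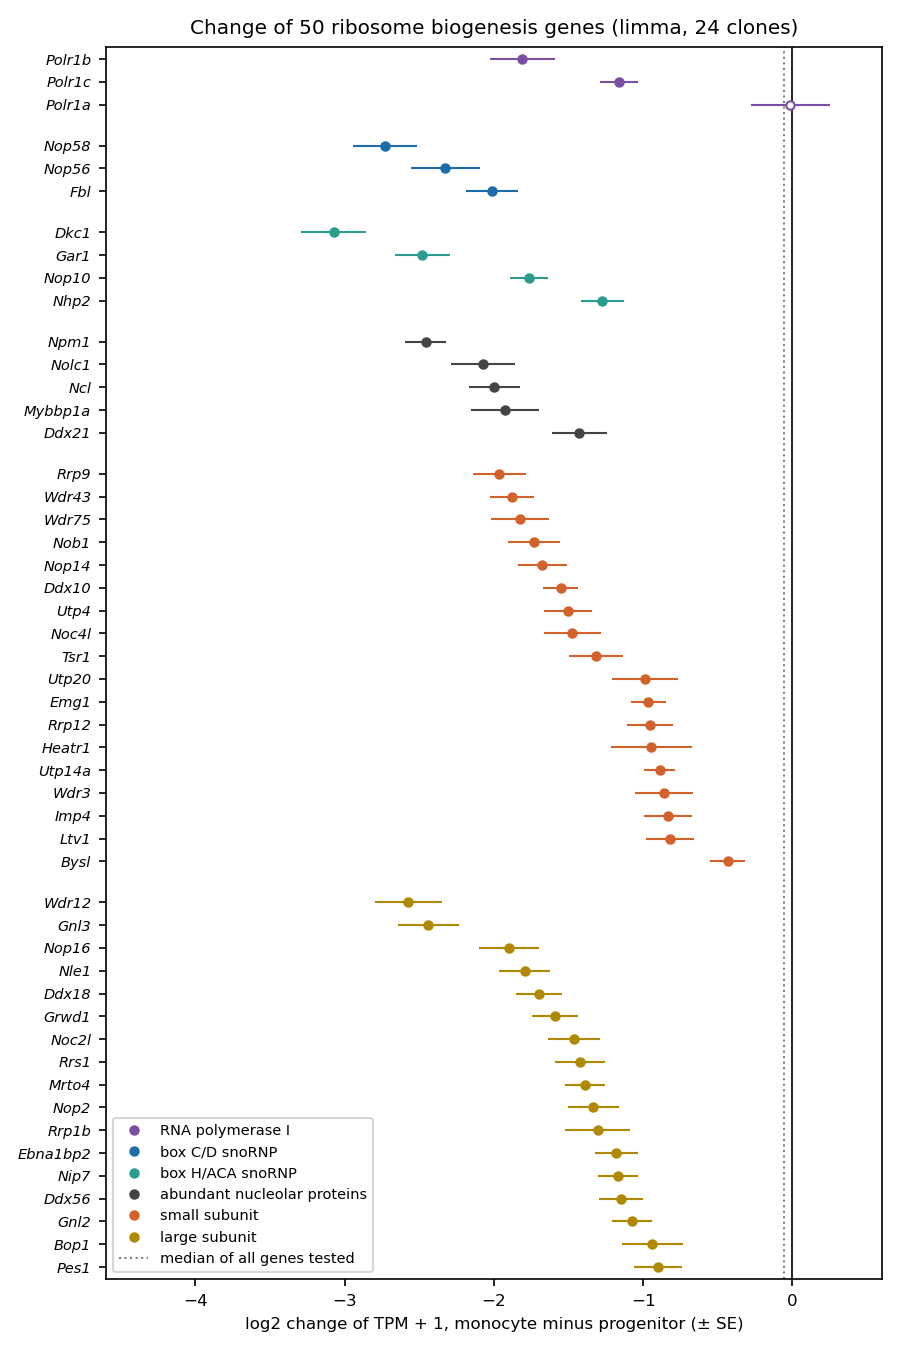
Change of each of the 50 genes between states, as monocyte minus progenitor on the log2(TPM + 1) scale, with points for the limma estimate, bars for its standard error and colours for 6 roles. Filled points passed an adjusted p of 0.05, the open point of Polr1a did not, and the dotted line marks the median of all genes tested at -0.06.

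The fall was seen clone by clone. A total of 41 genes were lower in the monocyte library of 23 or 24 of the 24 clones, where 13% of genes tested met that count, and 48 genes in at least 21 clones, where 22.7% did. Dkc1, Npm1, Nop10, Polr1c and Wdr12 were lower in all 24. The exceptions were Heatr1, lower in 14 clones, and Polr1a, lower in 10. Full separation of the states was rare, since only Npm1 had every monocyte library below every progenitor library, beside 0.560% of genes tested. Without clone 24 it was still 1 gene, beside 1.23%.

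The promoters of the 50 genes were looked at because the genes moved together. RefSeq windows (GRCm38.p6) from 250 bases before to 50 after the annotated start were at hand for 44 of the 50, in 48 windows. The letters CACGTG, an E-box that reads the same on both strands, stood in 11 of 48 windows (22.9%), in 10.4% of the windows of all genes tested and in 7.15% of all promoter windows of the same length. The letters GGAA, on either strand, stood in 93.8% of the windows of the 50 genes and in 95.9% of those of genes tested. The letters CCAAT, on either strand, stood in 37.5% and 38.4%. The 11 stretches around CACGTG are printed 5′ to 3′ on the strand of the gene with those 6 letters in capitals, so that their place and flanks can be compared:
Imp4, chr1:34439698-34439723 (+): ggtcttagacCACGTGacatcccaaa
Nop2, chr6:125131813-125131838 (+): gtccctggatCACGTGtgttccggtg
Pes1, chr11:3963967-3963992 (+): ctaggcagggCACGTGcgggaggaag
Utp4, chr8:106893645-106893670 (+): cgcaagcgcgCACGTGgggccggggc
Wdr43, chr17:71616222-71616247 (+): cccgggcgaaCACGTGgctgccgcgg
Nle1, chr11:82908357-82908382 (-): ggttctcctcCACGTGgggacgcagg
Tsr1, chr11:74898094-74898119 (+): acttggtgcaCACGTGgactgcagaa
Ltv1, chr10:13193094-13193119 (-): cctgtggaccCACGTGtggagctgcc
Grwd1, chr7:45830740-45830765 (-): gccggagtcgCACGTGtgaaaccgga
Utp20, chr10:88826765-88826787 (-): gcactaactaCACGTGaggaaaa
Mybbp1a, chr11:72441357-72441376 (+): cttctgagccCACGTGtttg
In 9 of the 11 the motif began after the annotated start, between 3 and 41 bases into the transcript, and in Imp4 and Nop2 it began 121 and 60 bases before it. The median log2 change was -1.34 over the 11 genes with CACGTG and -1.55 over the 33 genes whose windows lacked it. A match is a run of letters in a window and was not tested for binding.

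Of the 3 RNA polymerase I genes 2 fell and Polr1a did not pass. Polr1b, which encodes the second-largest subunit (chromosome 2, 129100995 to 129126594), had 0.210, 1.49 and 8.57 TPM at the lowest, median and highest monocyte library, against 1.71, 6.32 and 30.9 TPM in progenitor libraries. A total of 15 of its 24 monocyte libraries lay below the lowest progenitor library, and the log2 change was -1.81 (SE 0.22, limma adjusted p = 3.64e-08). Polr1c, a subunit shared with RNA polymerase III, had 8.04, 30.3 and 56.4 TPM in monocytes, against 9.70, 74.0 and 94.5 TPM in progenitors. Progenitor clone 21, at 9.70 TPM, lay below most monocyte libraries, yet Polr1c was lower in monocytes in all 24 clones (log2 change -1.16, SE 0.12, limma adjusted p = 4.08e-09). Polr1a, the largest and catalytic subunit (chromosome 6, 71909053 to 71984935), had 2.70, 10.6 and 55.9 TPM in monocytes and 1.53, 10.8 and 34.5 TPM in progenitors. The ranges of Polr1a overlapped almost wholly, the highest library of all was monocyte clone 20, and the log2 change was -0.01 (SE 0.27, limma adjusted p = 0.969). It was 0.50 in clones 1 to 13 alone, so no direction can be given for it.

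The snoRNP core proteins had the largest median changes of the 6 roles. All 3 box C/D genes fell, with a median of -2.33, and all 4 box H/ACA genes fell, with a median of -2.12. Box C/D particles methylate rRNA, and Nop58, 1 of their paired core proteins (chromosome 1, 59684971 to 59719044), had 6.61, 44.3 and 182 TPM in monocytes, against 94.7, 302 and 565 TPM in progenitors. In 20 of 24 clones the Nop58 level of monocytes was below that of the lowest progenitor library, and its log2 change was -2.73 (SE 0.21, limma adjusted p = 8.76e-12). Its partner Nop56 had 10.9, 75.3 and 312 TPM in monocytes, against 157, 304 and 734 TPM in progenitors (log2 change -2.33, SE 0.23, limma adjusted p = 9.36e-10). Fbl, fibrillarin, the methyltransferase itself, had 15.6, 61.0 and 178 TPM in monocytes, against 102, 232 and 396 TPM in progenitors (log2 change -2.02, SE 0.17, limma adjusted p = 6.25e-11). In all of these genes the highest monocyte library was clone 22, and the lowest progenitor library was clone 24.

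Box H/ACA particles convert uridine to pseudouridine, and Dkc1 encodes dyskerin, their synthase, which also holds telomerase RNA. Dkc1 (chromosome X, 75095854 to 75109777) had 1.25, 10.4 and 48 TPM in monocytes, against 18.7, 88.9 and 192 TPM in progenitors. Its change of -3.08 (SE 0.22, limma adjusted p = 1.23e-12) was the largest of the 50 genes, and 22 of 24 monocyte libraries lay below all progenitor libraries. The partners differed in size of change, with Gar1 at -2.48 (SE 0.19), Nop10 at -1.76 (SE 0.13) and Nhp2 at -1.27 (SE 0.14), each with a limma adjusted p under 0.05. Nhp2 had 17.8, 39.1 and 94.9 TPM in monocytes and 75.7, 108 and 133 TPM in progenitors, with 21 monocyte libraries below all progenitor libraries.

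The abundant nucleolar proteins all fell, 5 of 5, with a median of -2.0. Npm1, nucleophosmin, a chaperone of the granular nucleolus (chromosome 11, 33152287 to 33163206), was the most abundant of the 50 genes in both states. It had 44.1, 180 and 560 TPM in monocytes, against 739, 909 and 1439 TPM in progenitors, and the groups did not overlap, though processed pseudogenes of Npm1 can share its reads (log2 change -2.46, SE 0.14, limma adjusted p = 8.08e-15). Ncl, nucleolin, which binds the rRNA precursor (chromosome 1, 86344719 to 86359400), had 34.8, 60.3 and 267 TPM in monocytes, against 135, 290 and 732 TPM in progenitors. The upper monocyte libraries of Ncl reached past the lower progenitor libraries, and 17 monocyte libraries lay below all of them (log2 change -2.0, SE 0.17, limma adjusted p = 4.39e-11). Nolc1, a snoRNP chaperone, changed by -2.07, and Mybbp1a, whose window holds a CACGTG close to the end of the part examined, by -1.93. The RNA helicase gene Ddx21 changed least here, with 2.71, 8.64 and 22.6 TPM in monocytes, against 7.54, 25 and 61.3 TPM in progenitors (log2 change -1.43, SE 0.18, limma adjusted p = 9.73e-08).

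**Figure D2:**
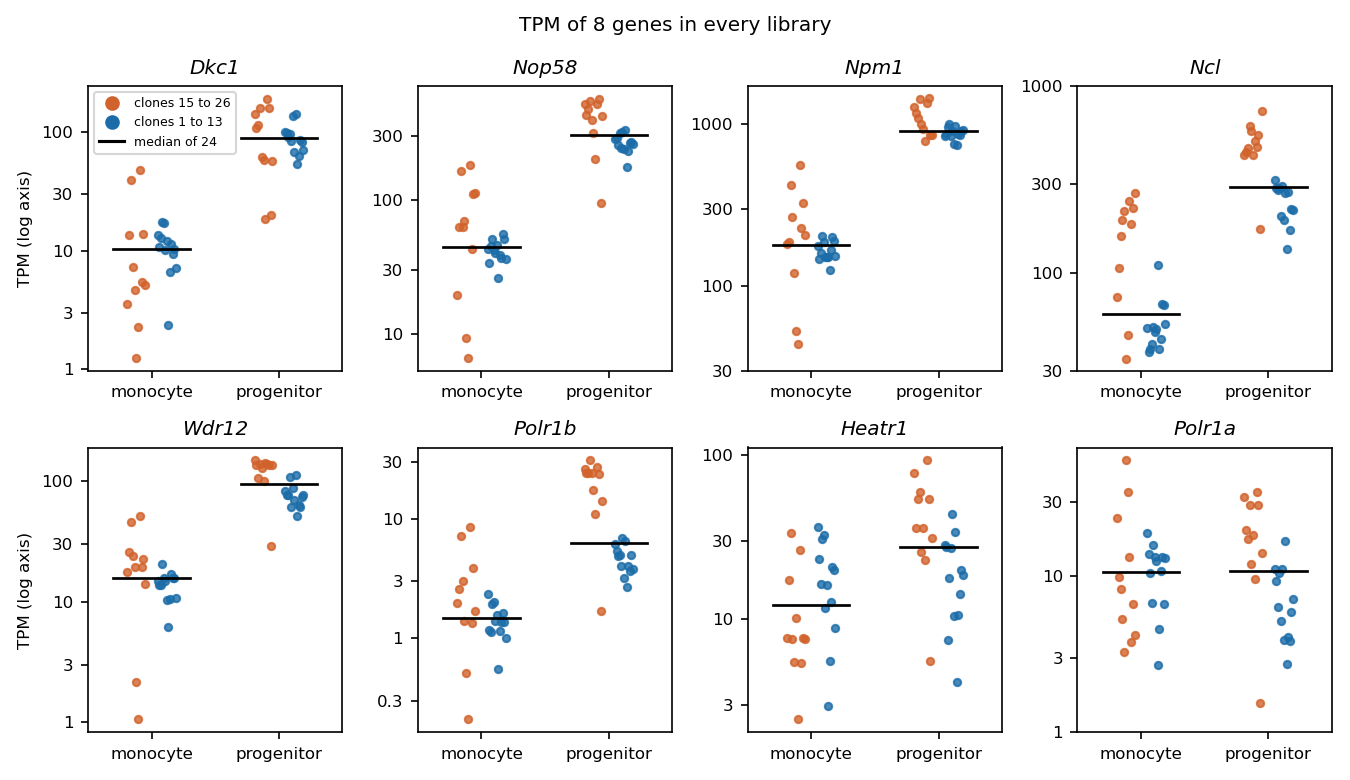
TPM of 8 genes in every library on log axes, monocytes left of progenitors, with clones 15 to 26 and clones 1 to 13 in separate colours and a bar at the median of 24 libraries. The 24 Npm1 points of monocytes end at 560 TPM below the lowest progenitor point at 739 TPM, while the points of Polr1a cover the same range in both states.

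All 18 genes of the small subunit fell, with a median of -1.15, and 9 of them at least 2-fold. Rrp9, a protein specific to the U3 snoRNP that starts processing of the precursor, changed most. It had 1.14, 10.5 and 34.2 TPM in monocytes, against 18.6, 42.3 and 65.9 TPM in progenitors, with 22 monocyte libraries below all progenitor libraries (log2 change -1.96, SE 0.18, limma adjusted p = 1.21e-10). Among the genes of the subcomplex that binds the 5′ end of the precursor, Wdr43, Wdr75 and Utp4 changed by -1.88, -1.83 and -1.50. Wdr43 and Utp4 carry CACGTG in the first bases of the transcript, and Wdr75 is not among the 11. Heatr1, of the same subcomplex, had 2.43, 12.1 and 36.2 TPM in monocytes and 4.13, 27.2 and 92.4 TPM in progenitors. Its groups overlapped almost wholly, with 2 monocyte libraries below all progenitor libraries (log2 change -0.95, SE 0.27, limma adjusted p = 0.00316).

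The factors that act late on the small subunit covered a wide range. Nob1, the nuclease that makes the final cut, changed by -1.73, and Tsr1 by -1.31, while Rrp12 changed by -0.95, Ltv1 by -0.82 and Bysl by -0.43. Bysl, bystin, had 1.72, 2.77 and 5.98 TPM in monocytes and 1.70, 4.59 and 8.11 TPM in progenitors. Its ranges overlapped from end to end and the change was the smallest of the 49 that passed (SE 0.12, limma adjusted p = 0.00200). Emg1, an rRNA methyltransferase gene, changed by -0.97, and Utp14a, which works with the helicase of the processome, by -0.89.

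All 17 genes of the large subunit fell, with a median of -1.39, and 15 of them at least 2-fold. Wdr12, Pes1 and Bop1 encode the PeBoW complex, which is needed to mature the large subunit rRNA, and their changes were of different size. Wdr12 (chromosome 1, 60069785 to 60098645) had 1.06, 15.6 and 51.2 TPM in monocytes, against 28.7, 94.0 and 148 TPM in progenitors, with 22 monocyte libraries below all progenitor libraries (log2 change -2.57, SE 0.23, limma adjusted p = 8.36e-11). Pes1 had 6.98, 25.9 and 46.5 TPM in monocytes, against 12.2, 47.5 and 80.6 TPM in progenitors, and all but 1 of its monocyte libraries lay within the progenitor range (log2 change -0.90, SE 0.16, limma adjusted p = 1.66e-05). Bop1 changed by -0.94 (SE 0.20, limma adjusted p = 0.000203). The difference between the members of the complex was not tested.

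The other genes of the large subunit lay between these. The nucleolar GTPase gene Gnl3, nucleostemin, known from stem and progenitor cells, changed by -2.44, and its relative Gnl2 by -1.07. Nop2, an rRNA methyltransferase gene with CACGTG upstream of its start, changed by -1.33. The helicase genes Ddx18 and Ddx56 changed by -1.70 and -1.15. Nle1 and Grwd1, both with CACGTG in the first bases of the transcript, changed by -1.79 and -1.59. Smaller changes were seen in the remaining genes with CACGTG, Tsr1, Utp20, Pes1, Imp4 and Ltv1 (-1.31, -0.99, -0.90, -0.83 and -0.82). The median change with CACGTG was -1.34, beside -1.55 for genes whose windows lacked it.

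Genes of the same pathway outside the 50 had a smaller median change. Both the 50 and these lists were chosen with earlier results of these data known, so their medians do not rank parts of the pathway. Of 121 listed, 113 were tested, 94 fell, 1 rose and 18 passed in neither direction, with a median change of -0.85. Of 17 other genes of RNA polymerase I and its initiation 15 fell, Taf1d most (-1.48), and of 29 other genes of the small subunit processome 25 fell, Rcl1 most (-2.42). Of 35 other genes of large subunit assembly 30 fell, Lyar most (-2.32), of 10 genes of export and cytoplasmic maturation 7 fell, Pa2g4 most (-2.14), and of 14 exosome genes 11 fell, Exosc2 most (-1.85). Among 8 late small subunit genes 6 fell, Tsr2 most (-1.66). The kinase gene Riok3 was the single gene that rose, with 11.3, 27.2 and 45.9 TPM in monocytes, against 5.32, 11.8 and 21.9 TPM in progenitors (log2 change 0.94, SE 0.16, limma adjusted p = 6.61e-06).

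The level of the 50 genes differed widely between clones of the same state. The median over the 50 genes was lowest in monocyte clones 21 and 20, at 3.57 and 4.36 TPM, and highest in monocyte clones 22, 17 and 24, at 32.4, 24.4 and 18.8 TPM. Clone 22 was the highest monocyte library for 41 of the 50 genes, and clones 21, 20 and 8 were the lowest for 23, 13 and 10. In progenitors the median ran from 12.6 TPM in clone 24 and 15.3 TPM in clone 9 up to 57.6 TPM in clone 23, and clone 24 was the lowest library for 42 of the 50 genes. Shares over all genes are not given for these counts of highest and lowest libraries. The median of 21 of 24 monocyte libraries lay below that of all progenitor libraries other than clone 24.

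The sum over the 50 genes was 3.75 times as high in the progenitor library as in the monocyte library of the median clone. The ratio ran from 1.06 in clone 24 to 10.2 in clone 21. The most abundant genes weigh most in such a sum. In clone 24, Npm1 alone had 854 of 2108 TPM in the progenitor library and 326 of 1983 TPM in the monocyte library. In clone 24, 45 of the 50 genes were not lower in the monocyte library, where 87.1% of all genes tested were not. No more than 4 genes behaved so in any other clone, and none in 7 clones, but the share over all genes is not given for these clones. Without clone 24 the count of genes that fell was 49 again, and the median change was -1.58.

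**Figure D3:**
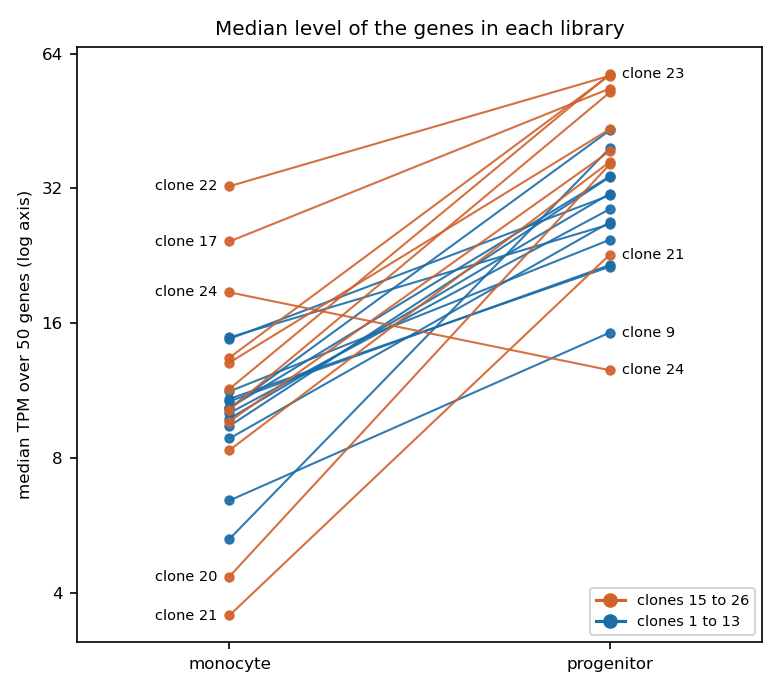
Median TPM over the 50 genes in the monocyte and progenitor library of each clone on a log axis, with a line joining the libraries of a clone and colours for clones 15 to 26 and clones 1 to 13. Clone 24 runs against the others, with 18.8 TPM in monocytes and 12.6 TPM in progenitors, while clones 21 and 20 have the lowest monocyte medians.

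Across clones the 50 genes varied together. The median correlation between pairs of them was 0.76 in monocytes, where it was 0.17 over genes tested, and 0.77 in progenitors, where it was 0.38. These are descriptions over 24 libraries whose points share scaling and composition. The clone-to-clone SD of log2(TPM + 1) had a median of 0.69 in monocytes and 0.59 in progenitors over the 50 genes, beside 0.60 and 0.56 over genes tested. It was larger in monocytes for 34 of the 50, and for 54.6% of genes tested.

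Other measures went with the level of the genes in the highest and lowest monocyte libraries. Myc, a transcription factor that binds E-boxes and is known to act on ribosome biogenesis genes, had 0.629, 7.26 and 61.5 TPM in monocytes, against 9.76, 57.2 and 148 TPM in progenitors (log2 change -2.84, SE 0.31, limma adjusted p = 4.15e-09). Monocyte clones 22, 17 and 24, with the highest median over the 50 genes, had 61.5, 44.0 and 15.5 TPM of Myc, and clones 20 and 21 had 0.629 and 0.757 TPM. The same high clones had low neutrophil marker sums, 339, 3292 and 10005 TPM, and clones 20 and 21 had 152876 and 184219 TPM. Clones 22 and 17 also had the highest progenitor marker sums of the monocyte group, 334 and 245 TPM. Clone 23 had a low neutrophil marker sum of 1856 TPM with a median of 11.4 TPM over the 50 genes and 5.84 TPM of Myc. Clones 26 and 18 had sums of 13126 and 15106 TPM with medians of 9.66 and 13.4 TPM. Monocyte clones 15 and 1 had 1.82 and 4.81 TPM of Myc with medians of 10.3 and 14.8 TPM over the 50 genes. The part of these cell type markers in the level of the genes was not tested.

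**Figure D4:**
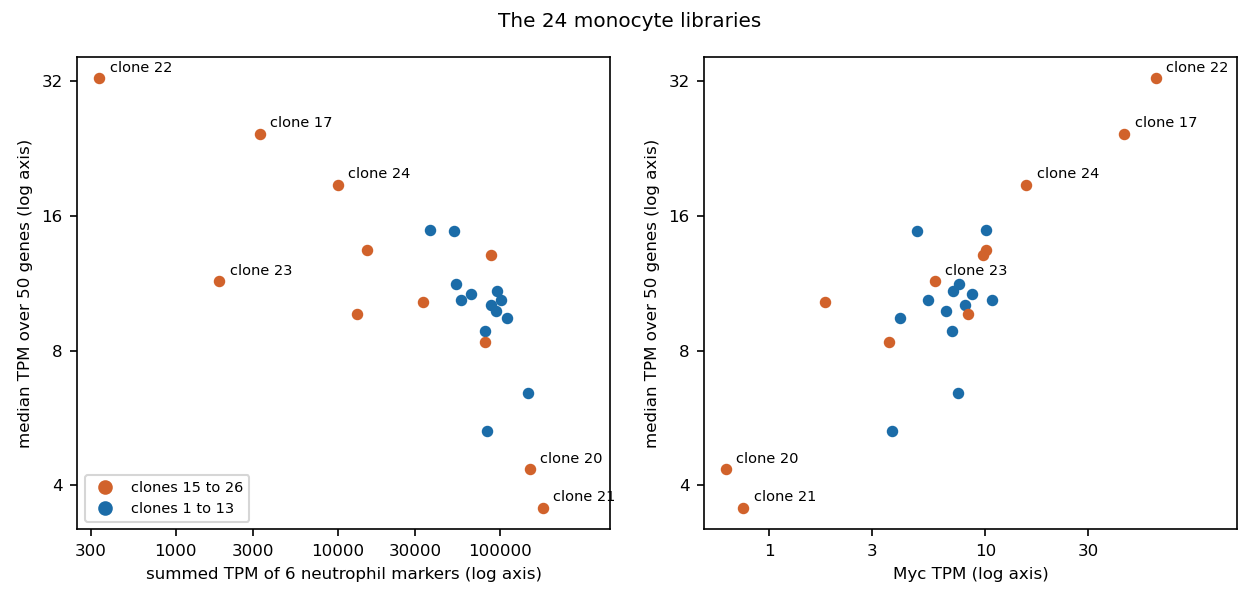
The 24 monocyte libraries, with the median TPM over the 50 genes against the summed TPM of 6 neutrophil markers (left) and against Myc TPM (right), all on log axes, coloured by clone set. Clones 22 and 17 combine the highest medians (32.4 and 24.4 TPM) with the highest Myc, and clones 20 and 21 the lowest medians with the lowest Myc.

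A correlation with Myc was computed for each gene within a state on log2(TPM + 1), a measure chosen after these values had been seen. Among monocyte libraries 47 of the 50 genes correlated positively at an adjusted p under 0.05 (two-sided permutation test over 24 libraries, adjusted over 11065 genes), where 25.8% of genes did. Ncl, Pes1 and Polr1a did not pass. The median r of the 50 genes was 0.80, beside 0.16 over genes tested, and it was 0.71 without clones 17 and 22, the clones farthest from the median Myc level. Within clones 15 to 26 the median r was 0.89, and within clones 1 to 13 it was 0.39, beside 0.20 and 0.21 over genes tested. The strongest was Nop10, with r = 0.92 and Spearman rho = 0.70 (permutation p = 1e-05, the smallest that 100000 pairings can give, and 0.00027), and r = 0.89 without clones 17 and 22. Polr1a had r = -0.38 and rho = -0.28 (permutation p = 0.0666 and 0.181).

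Among progenitor libraries 45 of the 50 genes correlated positively with Myc, where 64.5% of all genes did, with a median r of 0.88 beside 0.61. Mybbp1a was the strongest at r = 0.97 and rho = 0.92 (both with a permutation p of 1e-05). Polr1a, which did not pass among monocyte libraries, had r = 0.93 and rho = 0.93 here (both with a permutation p of 1e-05). The median r of the 50 genes was 0.80 without clones 9 and 24, 0.87 within clones 15 to 26 and 0.87 within clones 1 to 13, the sets in which the median over genes tested was 0.70 and 0.67. Nhp2 was the 1 gene whose negative correlation passed, with r = -0.45 and rho = -0.59 (permutation p = 0.0272 and 0.00271, adjusted p of r 0.0411). Its r was -0.88 without clones 9 and 24 and -0.47 within clones 1 to 13, but 0.60 within clones 15 to 26, clone 24 among them. Nop10 had r = -0.36 and rho = -0.54 (permutation p = 0.0842 and 0.00683, adjusted p of r 0.114) and, like Polr1c, Imp4 and Emg1, did not pass.

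Whether a clone that was high as a progenitor was also high as monocytes was tested gene by gene. Of the 48 genes with enough spread in both states, none passed (one-sided permutation test of 100000 pairings, adjusted over 9570 genes, of which 3.65% passed). An unadjusted p under 0.05 was reached by 10 of the 48, a count for which the share over the 9570 genes is not given. The median r was 0.19, beside 0.13 over all genes tested. The highest was Polr1c, with r = 0.59 and rho = 0.29 (permutation p = 0.00299 and 0.0820, adjusted p of r 0.0655), r = 0.66 within clones 15 to 26 and 0.14 within clones 1 to 13, and r = 0.43 without clones 21 and 24. Ncl, Gnl2, Npm1 and Utp14a followed with r = 0.53, 0.52, 0.49 and 0.44, and adjusted p from the same permutation test of 0.0744, 0.0640, 0.0942 and 0.150. Their rho was 0.41, 0.63, 0.42 and 0.47, and without each gene's 2 farthest clones r was 0.41, 0.76, 0.48 and 0.66. The count moved with clone 24 and with the scaling, and so did that of all genes. Without clone 24, 9 genes passed (Ncl, Npm1, Polr1c, Nop2, Nop14, Utp14a, Ddx10, Ddx18 and Gnl2), where 10.5% of genes did, and the median r was 0.40. With clone 24 kept, 8 passed after median-of-ratios scaling, where 11% of genes did, and 4 with mitochondrial, Gm and pseudogene entries left out, where 8.39% did. With each clone set centred on its own mean none of the 48 passed, where 1.22% of genes did. Centred in this way r was 0.58 for Polr1c and 0.52 for Npm1, but 0.03 for Ncl, 0.15 for Gnl2 and 0.19 for Utp14a. Within clones 15 to 26 r was 0.06 for Ncl, 0.11 for Gnl2, 0.54 for Npm1 and 0.14 for Utp14a, and within clones 1 to 13 it was -0.05, 0.49, 0.42 and 0.34.

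The clone numbers skip 14 and 25, and the 11 clones numbered 15 to 26 and the 13 clones numbered 1 to 13 were compared because earlier results of these data had shown that they differ. The labels name no batch. In progenitors 23 of the 50 genes were higher in clones 15 to 26, where 28.5% of genes tested were, and 3 were lower, where 10.9% were. In monocytes 2 genes, Ncl and Gnl2, were higher in clones 15 to 26 and none was lower, where 3.92% and 3.19% of genes were. Over all genes tested the median difference was 0.22 in progenitors, and 27.6% of the calls were lower. With mitochondrial, Gm and pseudogene entries left out these were 0.35 and 16.7%. There 34 of the 50 genes were higher and 2 lower, where 4313 and 863 of 10480 genes were. After median-of-ratios scaling they were -0.03 and 53.2%. There 22 of the 50 genes were higher and 6 lower, where 2699 and 3072 of 11028 genes were. In monocytes 44.9% of calls were lower, 16.9% without those entries and 55.3% after that scaling. Under these alternatives 3 and 4 of the 50 genes were higher, where 973 of 10480 and 599 of 11028 genes were. None of the 50 was lower, where 198 and 741 genes were.

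Ncl had 34.8, 183 and 267 TPM at the lowest, median and highest library of monocyte clones 15 to 26, against 37.5, 50.1 and 110 TPM in clones 1 to 13. Its difference was 1.35 in monocytes (limma adjusted p = 0.00524) and 0.99 in progenitors (limma adjusted p = 0.000145). Gnl2 had 6.79, 15.6 and 24.2 TPM in monocyte clones 15 to 26, against 6.35, 7.35 and 8.89 TPM in clones 1 to 13, a difference of 0.80 (limma adjusted p = 0.00462). Its lowest libraries were alike in both sets and the upper ones were apart. The genes lower in progenitor clones 15 to 26 were Nhp2, Nop10 and Emg1. Nop10 had 47.5, 76.0 and 94.3 TPM in progenitor clones 15 to 26, against 96.1, 111 and 124 TPM in clones 1 to 13, without overlap (difference -0.55, limma adjusted p = 0.000121).

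The difference between the clone sets in progenitors went with transcript length, for the 50 genes as for all genes. The Spearman rho across genes between the length of the longest coding transcript (GENCODE M21) and the difference was 0.48 over the 50 genes and 0.42 over the 9939 genes tested that have a length. In monocytes it was 0.09 and -0.02. These are descriptions across genes, which are not independent. The 10 longest of the 50, with a median of 7491 bases, had a median difference of 0.99 in progenitors, with 8 called higher and none lower. The 10 shortest, with a median of 1246 bases, had 0.30, with 2 called higher and 3 lower. Of genes tested of any length 28.5% were higher and 10.9% lower, and the shares for genes of like length are not given. Mitochondrial transcripts also differed, at a median of 11.9% of TPM in progenitor clones 15 to 26 and 5.39% in clones 1 to 13. Whether either is part of the difference was not tested.

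**Figure D5:**
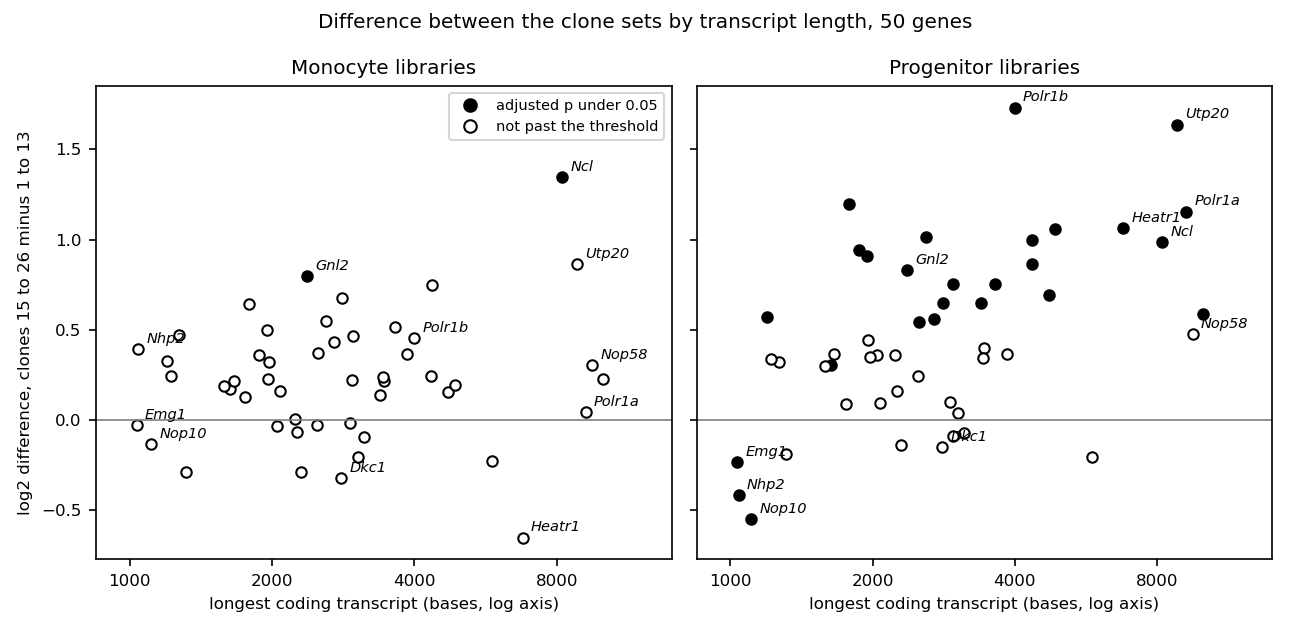
Difference between clones 15 to 26 and clones 1 to 13 on the log2(TPM + 1) scale for each of the 50 genes against the length of its longest coding transcript on a log axis, for monocyte (left) and progenitor (right) libraries. Filled points passed an adjusted p of 0.05, and in progenitors the 10 longest genes have a median of 0.99 and the 10 shortest 0.30.

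The fall in monocytes was present in both clone sets. It passed for 47 of the 50 genes within clones 15 to 26 (not for Wdr3, Polr1a and Bysl), where 27.4% of genes tested were lower, and for 48 within clones 1 to 13 (not for Polr1a and Heatr1), where 32.8% were. The size of the change differed between the sets for 3 genes, where 11.5% of genes tested differed. For Polr1b and Heatr1 it was more negative in clones 15 to 26, as for 9.79% of genes tested, and for Nhp2 less negative, as for 1.66%. Polr1b fell more in clones 15 to 26. Its progenitor libraries had 1.71, 24.1 and 30.9 TPM in clones 15 to 26, against 2.68, 4.88 and 6.99 TPM in clones 1 to 13, and its monocyte libraries 0.210, 1.98 and 8.57 TPM, against 0.561, 1.37 and 2.36 TPM. All progenitor clones 15 to 26 lay above clones 1 to 13 except clone 24, which lay below them. The difference for Polr1b no longer passed with a pseudocount of 0.1 (limma adjusted p = 0.0798) or with no filter on low values (limma adjusted p = 0.0512). Without clone 24, 10 of the 50 genes differed between the sets, where 27.4% of genes tested did.

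Heatr1 (chromosome 13, 12395027 to 12440289) had 5.53, 35.7 and 92.4 TPM in progenitor clones 15 to 26, against 4.13, 18.6 and 43.4 TPM in clones 1 to 13. In monocytes it had 2.43, 7.65 and 33.6 TPM in clones 15 to 26, against 2.94, 16.4 and 36.2 TPM in clones 1 to 13. Nhp2 fell less in clones 15 to 26. It had 75.7, 85.9 and 100.4 TPM in their progenitors, against 106, 115 and 133 TPM in clones 1 to 13, without overlap, and 17.8, 60.2 and 94.9 TPM in their monocytes, against 25.7, 38.0 and 42.6 TPM in clones 1 to 13.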

How the data were processed

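Poly(A) or total selection is not given in the labels, which name total RNA, column extraction and kit-made libraries. The authors deposited 1 table of TPM per gene symbol for 48 libraries. Salmon and mm10 are named in the submitters' processing notes, while the annotation release and how transcripts were summed per gene are not stated (not given in the sources used here). Of 34643 rows, 26 with calendar dates for names were left out. Deposited TPM summed to 982949 to 999250 per library, depth is unknown, and TPM are relative, so a class of transcripts that grows lowers all others. No libraries were identical.

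State changes came from a two-sided limma fit (limma 3.58.1, R 4.3.3) of log2(TPM + 1) that had a block for each clone and modelled the trend of variance with mean. It covered the 11072 genes whose mean TPM reached 1, with Benjamini-Hochberg adjustment at 0.05. The clone block rests on the series design text, which pairs progenitors and monocytes by clone. In 18 of 24 clones both libraries deviated together from the means of their states (r above 0.1). Differences between the clone sets enter these deviations, and no such count is given for libraries of different clones. The count therefore cannot show the pairing. The interaction of state and clone set and the clone sets within a state were fitted likewise, the within-state fits without a block. Correlations used permutation tests with 100000 pairings in Python 3.11.15. The limma fits for state and for the interaction were checked on simulated data. These had independent noise for each gene, no clone effects and no outlying library, unlike the real data. Gene coordinates are from GENCODE M21 (GRCm38) and promoters from RefSeq.

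The 50 genes, the related lists, the clone sets and the tests were chosen with earlier results of these data known. Values were given for the largest and smallest change in each role, genes that did not pass, the 5 most abundant genes in progenitors, and the strongest interactions and clone correlations. Reads of near-identical copies, such as the processed pseudogenes of Npm1 and of ribosomal protein genes, are divided by Salmon, which makes their levels uncertain. Alternatives changed the pseudocount, the filter, the scaling, the block and the clones used.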

Additional observations from a re-analysis of the deposited data

Results flagged for a closer look

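For 3 of the 50 genes the change between states differed between the clone sets by a test of the difference itself (limma interaction, adjusted over 11072 genes). For Heatr1 the difference, clones 15 to 26 minus clones 1 to 13, was -1.71 (SE 0.44, limma adjusted p = 0.0153). Its change was -1.87 (SE 0.32, limma adjusted p = 0.000255) in clones 15 to 26 and -0.16 (SE 0.30, limma adjusted p = 0.640) in clones 1 to 13. For Polr1b the difference was -1.28 (SE 0.37, limma adjusted p = 0.0281), with a change of -2.50 (SE 0.36) in clones 15 to 26 and -1.22 (SE 0.13) in clones 1 to 13. For Nhp2 it was 0.81 (SE 0.25, limma adjusted p = 0.0350), with a change of -0.84 (SE 0.26) in clones 15 to 26 and -1.64 (SE 0.07) in clones 1 to 13. Heatr1 and Polr1b have longest coding transcripts of 6780 and 3998 bases and Nhp2 of 1042 bases. Over all genes tested the Spearman rho across genes between length and this difference was -0.45, and over the 50 genes -0.41. Without clone 24, left out after its values had been seen, 10 of the 50 genes differed, where 27.4% of genes tested did. The part of length in these 3 results was not tested.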

How the results depend on the processing

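Values of single genes under the alternatives were kept for 18 of the 50 genes. Of these 263 values, 257 kept their direction and side of the threshold, 4 passed no longer and 2 changed sign. Both sign changes were of Polr1a, which did not pass in any: 0.033 with median-of-ratios scaling and 0.50 in clones 1 to 13 only. Wdr3, outside the 18, also did not pass in clones 15 to 26 only. The count of genes that fell stayed between 47 and 49 under every alternative, with medians from -1.10 (pseudocount 5) to -1.75 (without mitochondrial, Gm and pseudogene entries, where the median of all genes was -0.25 in place of -0.06). With no replicate block, in place of the fit paired by clone, 49 of the 50 genes and 7436 of all genes passed, and it changed no call among the 50. All genes called between states numbered 7623, and 5005 in clones 15 to 26 only. The difference between clone sets was called for 3 of the 50 genes, for 8 without clones 19, 21, 24 and 26 and for 10 without clone 24. Over all genes it was called for 1268, for 680 at a mean TPM of at least 5, 1958 with median-of-ratios scaling, 2938 without clones 19, 21, 24 and 26, 3036 without clone 24 and 2429 without clone 8. Lower calls made up 85.5% of the 1268 and 54.3% with median-of-ratios scaling. Clone differences shared between states were called for 0 of the 50 genes, for 4 without mitochondrial, Gm and pseudogene entries, 8 with median-of-ratios scaling and 9 without clone 24, a clone left out after its values had been seen, as was clone 8. Polr1b lost its call between the clone sets with a pseudocount of 0.1 (limma adjusted p = 0.0798) and with no filter on low values (0.0512). The causes were not tested. Depth is unknown, so the counting error, which weighs most on low levels such as those of Polr1b, cannot be estimated.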

Other observations

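Genes for the ribosome itself were also lower in monocytes. Of 79 tested genes of cytosolic ribosomal proteins 77 fell in monocytes, none rose, and Rpl37a and Rpl3l did not pass. Their median change was -0.84 on the log2(TPM + 1) scale, and Rpl3 changed most at -1.57. The transcripts of ribosomal proteins took a median of 9.23% of TPM in monocyte libraries and 15.2% in progenitor libraries.

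Of 6 genes of the cell cycle 4 fell, and Mki67 and Pcna did not pass. The replication gene Mcm2 had 2.50, 62.8 and 131 TPM at the lowest, median and highest monocyte library, against 20.7, 150 and 267 TPM in progenitors (log2 change -1.64, SE 0.33, limma adjusted p = 6.91e-05). Mki67, a marker of cycling cells, had 2.54, 13.2 and 33.8 TPM in monocytes and 1.38, 12.4 and 27 TPM in progenitors (log2 change 0.16, SE 0.26, limma adjusted p = 0.597). Progenitor clone 24 had the lowest Mki67 of the progenitor libraries. Among these it also had the lowest level of 42 of the 50 ribosome biogenesis genes, a count whose share over all genes is not given. That library was the lowest progenitor library for Top2a, Mcm5, Pcna and Kit as well, and had the fewest genes at 1 TPM or more, 8240. In that clone 87.1% of all genes tested were not lower in the monocyte library. A link between Mki67 and the 50 genes was not tested.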
